A study of Mus musculus with 18 samples.

Results

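Open chromatin was mapped in mouse retina, and 9 genes were described because each holds, or lies within 20 kb of, a region called as open after raised intraocular pressure (IOP) at both ages examined and not in the fellow eyes. The genes are Cdh20, Dcun1d4, Lmo1, Kremen1, Smad5, Cpeb4, Mreg, Hhat and Zbtb7c, of 21911 protein-coding genes in the annotation. A gained region was one with a peak in all 6 IOP lists and in none of the 6 contralateral lists, so the difference between those 2 kinds of list was what the genes were chosen by and is given below as a description with no test. Of 73567 regions present in at least 2 of the 18 lists, 33 had this pattern, which is 0.0449% of them, and 9 of the 33 lie in the windows of these genes, 1 in each window. The other 24 comprised 15 intronic, 8 intergenic and 1 promoter region, so these genes are not the only ones with such a region. The 9 regions were stronger and wider than the other 24. The median of their mean IOP percentile, defined below, was 54.9 against 41.7, and their median width was 660 against 413.5 bp. A window ran from 20 kb before the gene's start to 20 kb past its end (mm10, GENCODE M21).

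The assay was ATAC-seq, in which a transposase cuts DNA that is not wrapped in nucleosomes, so that pileups of sequenced fragments mark open promoters and enhancers. The libraries came from wild-type mice aged 3 or 18 months. At each age there were 3 libraries of untreated retinas, 3 of retinas whose pressure had been held at 30 mmHg for 1 hour and that were collected on day 2 by the labels, and 3 of the contralateral eyes. The study's text gives a different day of collection, so the interval is uncertain. The retina is dominated by rods, and most promoters of expressed genes are open, whereas distal peaks in introns and between genes differ more between cell types and states.

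The 9 genes have different roles. Kremen1, Smad5 and Hhat act in the Wnt, BMP and Hedgehog pathways. Lmo1 and Zbtb7c encode regulators of transcription, and Cpeb4 encodes a regulator of mRNA translation. Cdh20 encodes an adhesion molecule, Mreg a protein of organelle transport and membrane fusion, and Dcun1d4 a protein that helps attach NEDD8, a small ubiquitin-like modifier, to cullins.

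The reference sequence at the centre of a gained region shows what kind of DNA the peaks lay on. The 200 bases around the median summit are printed for 8 of the regions, 5′ to 3′ on the plus strand (RefSeq GRCm38.p6, the same assembly as mm10). Capitals mark matches to any of the motifs searched, namely TTCNNNGAA (STAT factors), TGANTCA (AP-1), TGACGTCA (cAMP response element), TAATCC (Crx and Otx2), TAATTA (other homeodomain factors), AGGTCA (ROR), ACANNNTGT (glucocorticoid receptor) and the longer motifs of NF-kB, NFI and CTCF, on both strands.
Cdh20, chr1:104920318-104920517: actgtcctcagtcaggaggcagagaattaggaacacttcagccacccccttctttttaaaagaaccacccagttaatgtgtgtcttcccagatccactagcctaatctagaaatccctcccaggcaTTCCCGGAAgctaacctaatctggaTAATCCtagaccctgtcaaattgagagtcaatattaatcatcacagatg
Dcun1d4, chr5:73570445-73570644: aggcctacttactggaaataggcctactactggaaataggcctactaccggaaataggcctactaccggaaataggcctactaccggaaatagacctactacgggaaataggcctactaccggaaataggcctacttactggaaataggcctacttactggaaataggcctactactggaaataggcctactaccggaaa
Lmo1, chr7:109192273-109192472: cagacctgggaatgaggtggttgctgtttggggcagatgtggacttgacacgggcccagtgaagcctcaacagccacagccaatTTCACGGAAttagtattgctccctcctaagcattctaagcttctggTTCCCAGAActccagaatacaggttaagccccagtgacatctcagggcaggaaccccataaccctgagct
Kremen1, chr11:5219115-5219314: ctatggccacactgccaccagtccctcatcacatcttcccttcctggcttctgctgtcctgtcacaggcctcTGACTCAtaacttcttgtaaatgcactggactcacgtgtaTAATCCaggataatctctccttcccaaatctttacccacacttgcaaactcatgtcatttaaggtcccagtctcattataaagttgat
Smad5, chr13:56730558-56730757: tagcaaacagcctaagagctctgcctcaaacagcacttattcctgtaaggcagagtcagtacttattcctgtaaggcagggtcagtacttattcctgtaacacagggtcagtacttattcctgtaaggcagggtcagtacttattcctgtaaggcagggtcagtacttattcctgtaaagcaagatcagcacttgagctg
Cpeb4, chr11:31900883-31901082: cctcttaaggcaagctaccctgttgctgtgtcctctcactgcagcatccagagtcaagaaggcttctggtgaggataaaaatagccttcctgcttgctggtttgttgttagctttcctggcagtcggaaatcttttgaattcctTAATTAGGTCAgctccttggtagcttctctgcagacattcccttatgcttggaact
Mreg, chr1:72197111-72197310: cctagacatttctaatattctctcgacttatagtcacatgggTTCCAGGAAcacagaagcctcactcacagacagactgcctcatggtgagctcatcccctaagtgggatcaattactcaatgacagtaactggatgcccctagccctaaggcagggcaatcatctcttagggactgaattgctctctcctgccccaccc
Hhat, chr1:192521131-192521330: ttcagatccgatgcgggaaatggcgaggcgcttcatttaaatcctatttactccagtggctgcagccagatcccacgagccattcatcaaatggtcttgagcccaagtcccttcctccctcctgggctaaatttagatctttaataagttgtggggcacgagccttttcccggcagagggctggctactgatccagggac

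A STAT match was present in 3 of the 9 windows of 200 bases, those of Cdh20, Lmo1 and Mreg, and the same motif was found in 4.40% of the 73449 regions on assembled chromosomes. The Lmo1 window held a pair of such matches, centred 12 bases before and 34 bases after the summit. A Crx and Otx2 match was present in 3 of 9, against 15.4% of all regions. The Kremen1 window held the AP-1 match as well as a Crx and Otx2 match, and AP-1 matches occurred in 6.60% of all regions. The homeodomain and ROR matches of Cpeb4 overlap by 1 base, and these motifs occurred in 4.14% and 14.7% of all regions. None of the 9 held a match to the cAMP response element (0.918% of all regions), the glucocorticoid receptor motif (5.23%), NF-kB (0.196%), NFI (0.0286%) or CTCF (6.31%). Of the other 24 regions with the pattern, 5 held a STAT, 10 a Crx and Otx2, 7 an AP-1, 6 a ROR, 2 a homeodomain and 1 an NF-kB match, and none held the remaining motifs. These are matches of letters and were not tested.

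Dcun1d4 and Smad5 stood apart in sequence, since both regions are tandem repeats. In the Dcun1d4 window, 79.1% of bases equalled the base 18 positions earlier. The Smad5 window had a period of 26 bases at 78.7% identity. Identity at the best period between 5 and 60 bases was 31.1% to 36.2% in the other 7 windows, and only 0.711% and 0.727% of all regions reached the values of Dcun1d4 and Smad5. The periodic stretch was 140 bp long at Dcun1d4 and 168 bp at Smad5, in regions of 660 and 303 bp. Every 100-base word of all 9 gained regions, the length of a read in the labels, occurred once in the assembled chromosomes. This property was looked for after the sequences had been seen. The GC content of the 9 windows was 44.5% to 56.5% with a median of 46.5%, against a median of 52.5% over all regions and 51% over those outside promoters. None of the 9 lay in a promoter or an exon, as 19.3% and 6.51% of all regions did. They comprised 7 intronic and 2 intergenic regions, classes that held 47.5% and 26.6% of all regions.

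Depth was estimated, since the lists give no totals. It was 16.3 M to 28.3 M tags per library (18.3 M to 28.3 M in IOP, 18.7 M to 24.8 M in contralateral and 16.3 M to 19.9 M in untreated libraries), and the lists held 36011 to 66160 peaks. The promoters of 6 of 6 rod genes had a peak in all 18 lists, and those of the marker genes of microglia (4 genes), endothelium (3), retinal pigment epithelium (3) and lens (3) had one in none. Of the other retinal cell types, 1 of 3 cone, 2 of 4 bipolar and 2 of 4 Müller glia genes had a promoter peak in all 18. So did 2 of 4 amacrine and horizontal and 1 of 4 ganglion cell genes. A cone and a ganglion cell gene had a promoter peak in no list, so a missing peak does not show a missing cell type. The shortest peak of a list was 79 to 89 bp in the untreated libraries. Among the others it fell into a short class of 114 to 122 bp (2 IOP and 3 contralateral libraries) and a long class of 148 to 157 bp (4 IOP and 3 contralateral libraries). The gained regions were called in every IOP list and in no contralateral list of either class. No label says whether libraries came from separate animals, so p-values measure the spread between libraries, and fewer cells of a type with an open site cannot be told apart from a less open site in each cell.

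**Figure D1:**
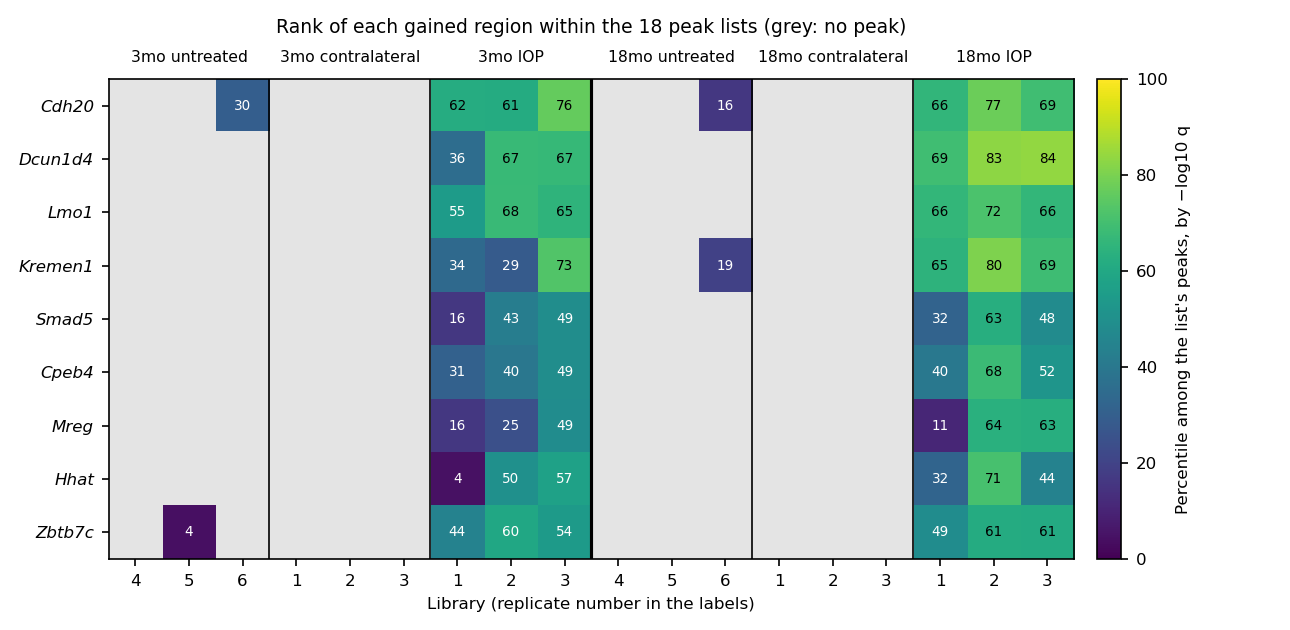
Percentile of the peak at each of the 9 gained regions (rows) among all peaks of its list, ordered by −log10 q, in the 18 libraries (columns, grouped by age and treatment, with the replicate number of the labels). Grey cells have no peak, and the 4 coloured cells outside the IOP groups are untreated lists at Cdh20, Kremen1 and Zbtb7c.

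Peak strength is given in 3 ways. The percentile is the share of a list's peaks whose −log10 q is no higher. The fold enrichment is the deposited ratio of pileup to local background, with 1 tag added to each. The pileup is the whole number of tags over the summit, worked out from the deposited fold and p, which only 1 whole number fitted for each peak. For a list with no peak at a region, the pileup needed is the smallest that would have reached the weakest p listed there, if the local background stood in the same ratio to the list's own as in the IOP lists, which is an assumption. It is a threshold and not a measured contralateral signal. IOP pileups above it follow largely from how the regions were chosen, so the distance is a description.

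Among the signalling genes, the gained region of Kremen1 was at chr11:5218778-5219546, in an intron 42.3 kb from the start of the gene, which lies on the minus strand. Kremen1 is a receptor for Dickkopf proteins that takes the Wnt co-receptor LRP6 off the cell surface. The pileup was 22, 20 and 48 tags in the 3mo IOP lists 1, 2 and 3, and 39, 70 and 50 tags in the 18mo IOP lists. Lists 1 and 2 at 3 months were low, at percentiles 34.3 and 28.7, whereas the other 4 lay between 64.7 and 80.5. The contralateral lists, which had no peak, would have needed 14 to 15 tags. The untreated list 6 at 18 months had a peak of 130 bp at percentile 19.3 with 11 tags, so the region was not confined to treated eyes.

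Smad5, which carries BMP signals to the nucleus, had its gained region at chr13:56730486-56730788, in an intron 27.6 kb past its start. It was the shortest of the 9, at 303 bp. The pileup was 12, 22 and 24 tags in the 3mo IOP lists and 16, 34 and 25 in the 18mo lists, against 10 to 11 needed in the contralateral lists. The weakest list, 3mo IOP 1, was thus 1 tag above that range, at percentile 16.3. No untreated list had a peak. The nearest peak of each contralateral list was 1.05 to 2.12 kb away.

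Hhat adds the palmitate that Hedgehog proteins need for full activity. Its gained region, chr1:192521037-192521455, lay in an intron 250 kb from the start, near the far end of a gene of 275 kb. The pileup was 13, 22 and 26 tags in the 3mo IOP lists and 21, 43 and 26 tags in the 18mo lists. The percentile ran from 4.47 in 3mo IOP 1, the lowest value of any of the 9 regions in an IOP list, to 71.1 in 18mo IOP 2. The contralateral lists would have needed 11 to 12 tags. No untreated list had a peak there.

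Of the regulators of RNA, Lmo1 is a LIM-only protein that bridges DNA-binding factors. Its gained region, chr7:109191936-109192672, was the only one upstream of its gene, 17.2 kb before the start. The pileup was 49, 70 and 58 tags in the 3mo IOP lists and 61, 77 and 66 in the 18mo lists, the highest median of the 9 regions at 63.5 tags. The local background was high as well, with a median of 13.6 tags, so the fold enrichment was only 3.75 to 4.71. The 6 percentiles were close together, at 55.0 to 71.5. The 24 to 27 tags needed in the contralateral lists lay below all 6 pileups, and the nearest contralateral peaks were 3.44 to 3.63 kb away.

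Cpeb4 binds mRNAs and controls their polyadenylation and translation. Its gained region, chr11:31900481-31901136, lay in an intron 28.8 kb past the start. The pileup was 15, 19 and 23 tags in the 3mo IOP lists and 16, 35 and 26 tags in the 18mo lists, with 10 needed in each contralateral list. Peaks were narrow, with a median width of 167 bp and a widest peak of 547 bp in 18mo IOP 2, and the list 3mo IOP 2 split the region into 2 peaks. No untreated list had a peak, and the nearest contralateral peak was 21.5 to 21.6 kb away in every list.

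Zbtb7c, a zinc finger repressor of transcription, is the longest of the 9 genes at 328 kb. Its gained region, chr18:75916368-75917039, lay in an intron 96.6 kb past the start. The pileup was 36, 42 and 41 tags in the 3mo IOP lists and 39, 45 and 51 tags in the 18mo lists, a narrow range, with 18 to 20 needed in the contralateral lists. The fold was low, 3.70 to 4.76, over a local background with a median of 9.12 tags. The untreated list 5 at 3 months had a peak of 88 bp with 9 tags, at percentile 4.05.

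**Figure D2:**
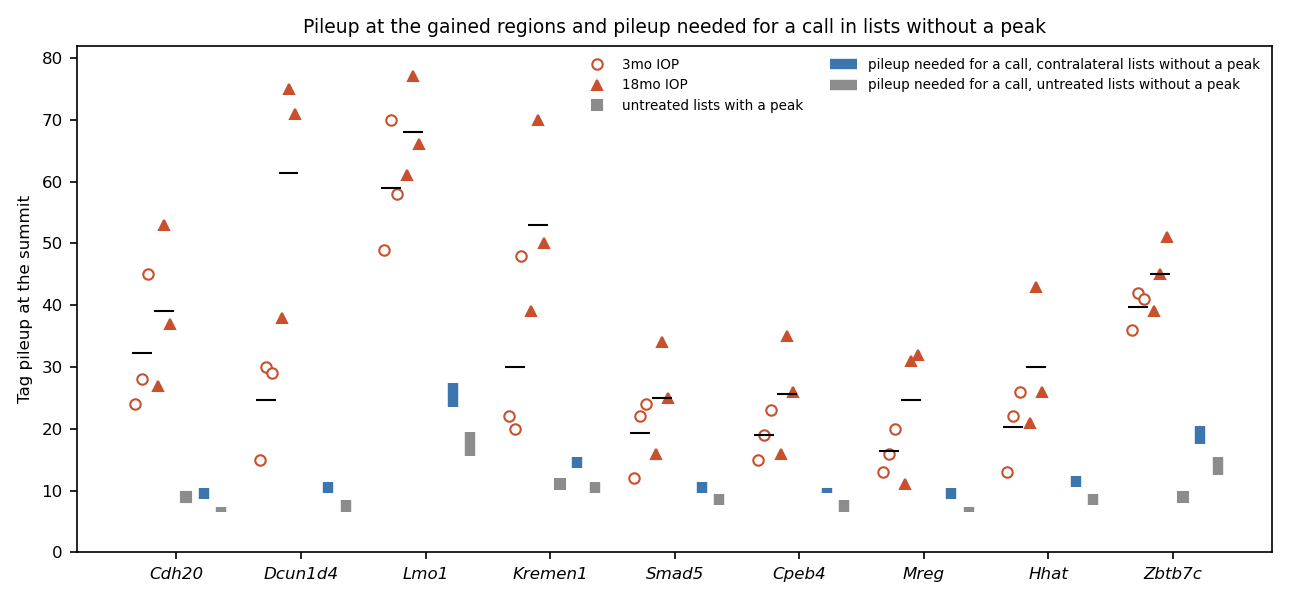
Tags over the summit of each gained region (y axis) in the 3mo IOP (open circles) and 18mo IOP lists (triangles, black lines for means of 3) and in the 4 untreated peaks (squares), beside the range of pileups that contralateral (blue) and untreated lists (grey) without a peak would have needed. Every IOP pileup lies above the contralateral range of its region, by the least at Smad5 (12 against 11), Mreg (11 against 10) and Hhat (13 against 12). The choice of the regions largely fixed this order, and no contralateral pileup was measured. The ranges needed rest on an assumed local background and may be too high.

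Cdh20 is a type II cadherin, a calcium-dependent adhesion molecule. Its gained region, chr1:104920154-104920873, lay in an intron 152 kb past the start. The pileup was 24, 28 and 45 tags in the 3mo IOP lists and 27, 53 and 37 tags in the 18mo lists, with 9 to 10 needed in the contralateral lists. The fold enrichment was the highest of the 9 by its median, at 9.61 with a range of 7.25 to 10.1. The summits of the 6 peaks fell within 20 bp of each other, the tightest span of the 9. The 3mo and the 18mo untreated list 6 both had a peak, with 9 tags each, at percentiles 29.9 and 16, so all 6 IOP lists stood above both.

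Mreg, melanoregulin, takes part in the movement and fusion of melanosomes and related organelles. Its gained region, chr1:72196990-72197421, lay in an intron 15.1 kb from the start. The pileup was 13, 16 and 20 tags in the 3mo IOP lists and 11, 31 and 32 tags in the 18mo lists, with 9 to 10 needed in the contralateral lists. The lists thus spread widely, from percentile 10.8 in 18mo IOP 1 to 63.6 in 18mo IOP 2, and the median of 36.6 was the lowest of the 9 regions. No untreated list had a peak.

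Dcun1d4 had its gained region at chr5:73570236-73570895, between genes, 9750 bp past the end of Dcun1d4 and 62.0 kb from the nearest start of a protein-coding gene, that of Lrrc66. The pileup was 15, 30 and 29 tags in the 3mo IOP lists and 38, 75 and 71 tags in the 18mo lists, so the pileups of the ages did not overlap. The local background differed in the same direction, at 1.92 to 2.63 tags in the 3mo and 3.45 to 6.76 in the 18mo IOP lists. The fold enrichments overlapped, at 5.49 to 9.03 and 8.76 to 10.1. The contralateral lists would have needed 10 to 11 tags and no untreated list had a peak. The region is the tandem repeat of period 18 described above.

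The untreated retinas were not used to choose the regions. Of the 9 regions, 6 had no peak in any of the 6 untreated lists, 2 had a peak in 1 list and Cdh20 had one in 2. Among all 28305 regions called in the 6 IOP lists, 0.269% had no untreated peak. The share among the other 24 regions of the pattern was 54.2%, so the members' 66.7% lay near that of their own kind. The untreated libraries had the shortest peaks and a lower list background (0.731 to 0.946 tags against 1.38 to 1.84 in the others). Under the assumption above, the pileup needed in them was correspondingly low, 7 to 19 tags. That difference in library type and the absence of treatment cannot be told apart.

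The age of the IOP-treated retinas was not part of the rule either, and here the 9 regions shared a direction. The mean percentile was higher in the 18mo than in the 3mo IOP lists at 9 of 9 regions, by 4.19 points (Zbtb7c) to 26.1 points (Kremen1) with a median of 12 points. Over all 28305 regions called in the 6 IOP lists the 18mo mean was the higher in 32.9%, with a median difference of -1.62 points, and at the other 24 regions of the pattern it was higher in 19. The list 18mo IOP 3, with the fewest peaks (36011), had the lowest percentile of its age at 74.7% of all these regions. It was the lowest at 11 of the other 24 and at 1 of the 9. Its weight in the comparison was not tested. The 9 regions were read from the same 6 libraries, so they are not 9 independent observations. The replicate spread was wide. At Kremen1 the percentile was 45.3 ± 24 at 3 months and 71.4 ± 8.18 at 18 months (SD, n = 3 each; exact permutation p = 0.3, two-sided). The ages did not overlap at 1 of the 9 regions, Dcun1d4, with 56.6 ± 18.1 at 3 months and 78.8 ± 8.20 at 18 months (SD, n = 3 each; exact permutation p = 0.1). That is the smallest p that 3 against 3 libraries can give, so no single region could pass 0.05. Percentiles did not overlap between the ages at 11.3% of all these regions, and all 18mo values were above at 2.54%. They were above at 6 of the other 24 regions of the pattern.

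On the scale of fold enrichment the mean was again higher at 18 months at 9 of 9 regions, against 62.2% of all regions, and the ages separated at Lmo1, Smad5 and Cpeb4 rather than at Dcun1d4. The fold of Lmo1 was 4.03 ± 0.248 at 3 months and 4.59 ± 0.109 at 18 months (SD, n = 3 each; exact permutation p = 0.1). For Smad5 it was 4.75 ± 0.409 and 5.62 ± 0.635, and for Cpeb4 5.08 ± 0.152 and 6.66 ± 1.31. Such a separation with the 18mo lists above was found at 4.85% of all regions called in the 6 IOP lists and at 7 of the other 24 regions of the pattern, of which 21 had a higher mean fold at 18 months. The regions that separate therefore depended on the measure, whereas the direction was shared by all 9 on both.

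Within each age, one IOP library tended to be the weakest at these regions. List 1 had the lowest percentile of the 3 at 7 of 9 regions at 3 months and at 8 of 9 at 18 months, whereas over all regions called in the 6 IOP lists it was the lowest at 21.0% and 15.3%. By fold enrichment the order was less marked, with list 1 the lowest at 6 of 9 regions at each age. The shares over all these regions were then 18.0% and 6.62%. The 2 lists numbered 1 are the IOP libraries of the short class, with shortest peaks of 119 and 122 bp. The 3mo one also had the highest estimated depth, at 28.3 M tags. That estimate divides the list background by the shortest peak, so it is not separate from peak length. The list background of 3mo IOP 1 was 1.80 tags, below the 1.84 of 18mo IOP 3. At the other 24 regions of the pattern, list 1 was the lowest at 11 and 10 by percentile and at 10 and 8 by fold. The part of peak length and depth in this order was not tested.

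The calls rest on what counts as a peak. With each list cut to its 36011 best peaks, 6 of the 9 regions kept a peak in all 6 IOP lists, while Mreg had 4, Smad5 5 and Hhat 5, and no untreated list had a peak at any of the 9. With at least 50% of a region to be covered by peaks, Lmo1, Smad5 and Zbtb7c kept 6 lists and the other 6 regions had 2 (Cpeb4) to 5. No contralateral list called any of the 9 under either.

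**Figure D3:**
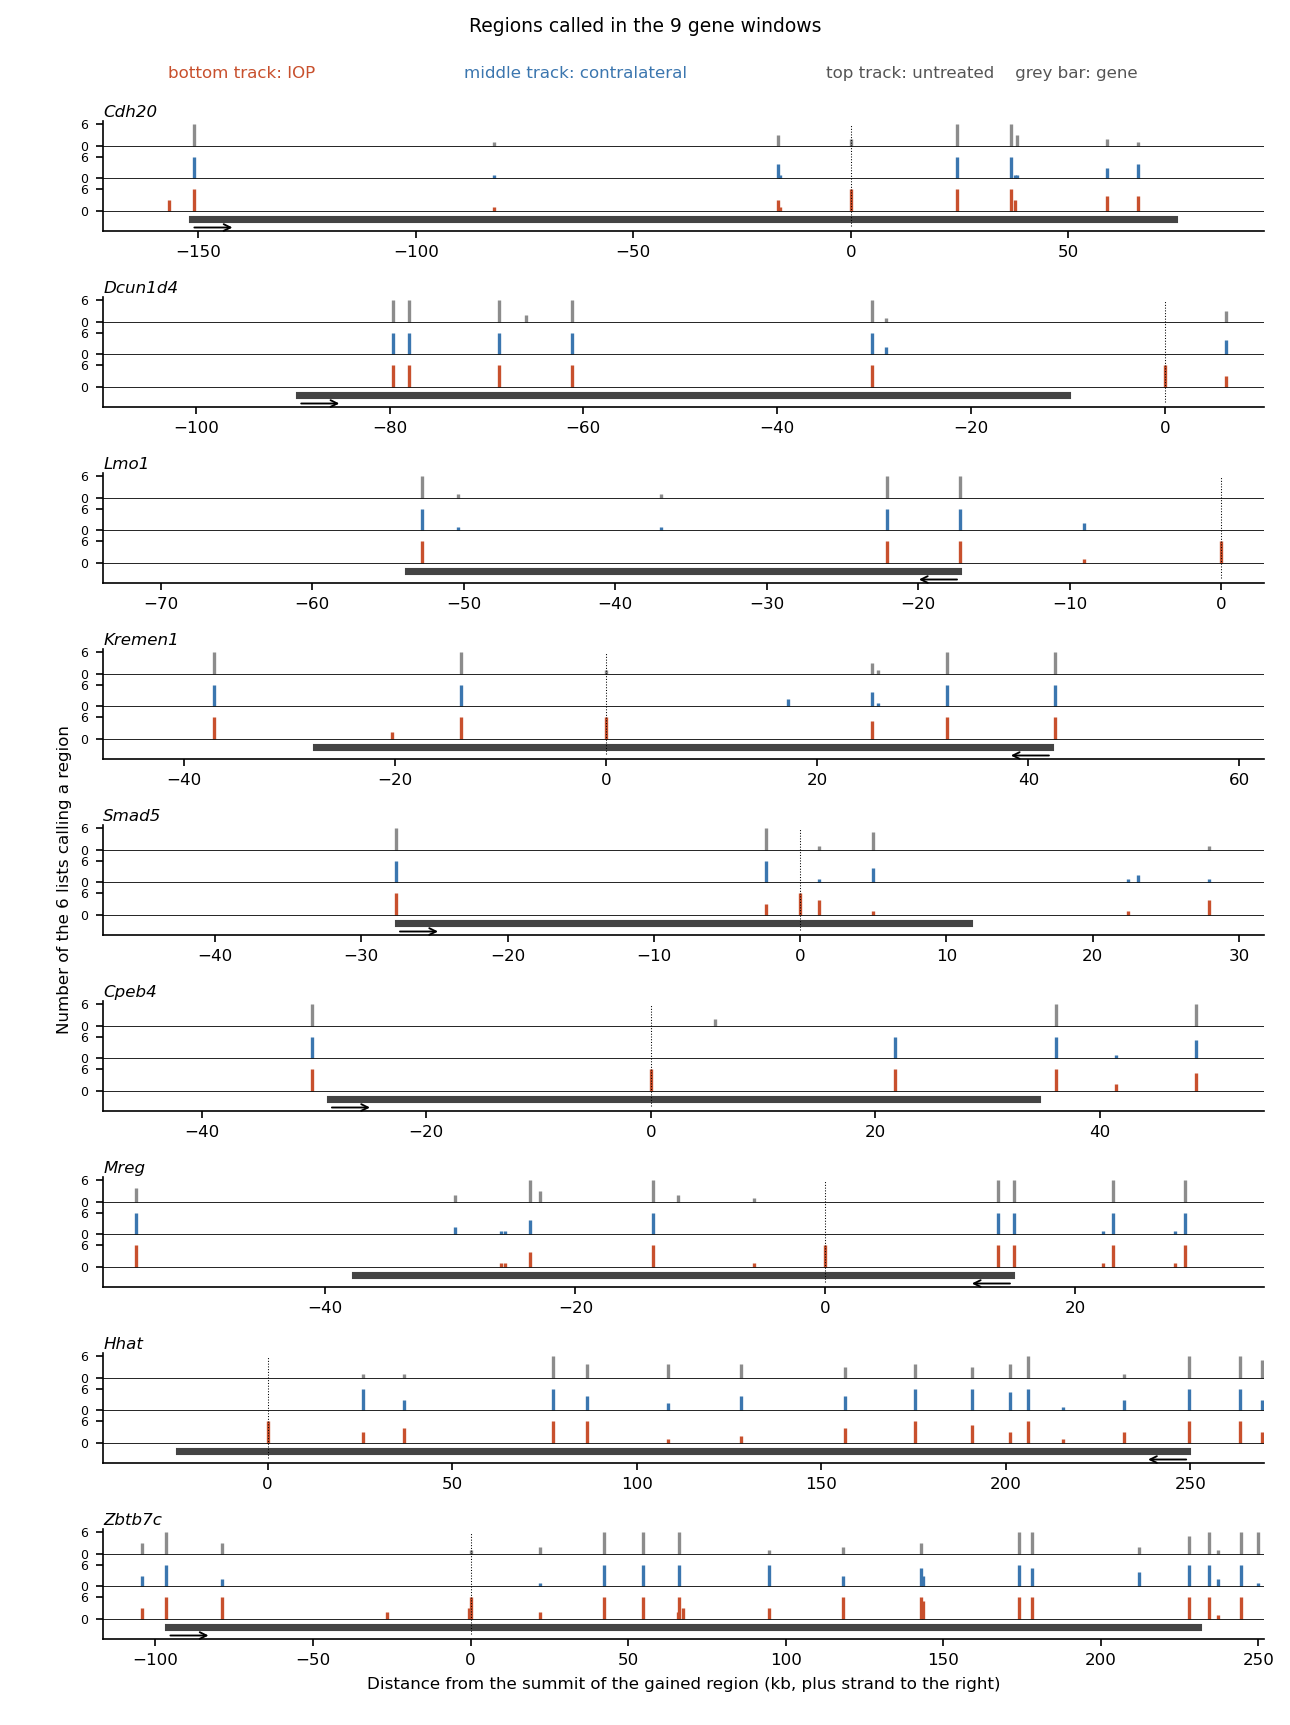
Position of every region in the 9 windows (x axis, kb from the summit of the gained region) and the number of the 6 IOP (bottom track), 6 contralateral (middle) and 6 untreated lists (top) that called it, with the gene as a bar and an arrow at its start. The gained region at 0 appears in the bottom track alone in 6 windows, and a region overlapping a promoter of every gene reaches 6 of 6 in all 3 tracks.

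The rest of each locus was then examined for change around the gained region. The 9 windows held 100 other regions, of which 34 had a peak in all 18 lists, against 33.6% of all regions. They included 10 promoter, 2 exonic, 68 intronic and 20 intergenic regions. A region overlapping a promoter of each of the 9 genes was called in all 18 lists. Classes were read at the median summit. By that class the region was intronic at Cdh20 and Hhat and intergenic at Cpeb4, since its summit lay outside the promoter. The nearest region called in all 18 lists was 13.8 kb (Kremen1 and Mreg) to 77.3 kb (Hhat) from the gained one.

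The number of other regions called in IOP and in contralateral lists was compared by an exact permutation test within age over 6 against 6 libraries, and none of the 9 genes passed it. This test took no account of pairing between the 2 eyes of a mouse. The most positive difference was at Zbtb7c, with 15.3 ± 1.53 regions in the 3mo IOP lists against 13 ± 3 in the contralateral ones and 16.7 ± 2.52 against 14.7 ± 1.53 at 18 months (SD, n = 3 each; exact permutation p = 0.145). It was most negative at Hhat, with 11 ± 1 against 10.7 ± 3.06 at 3 months and 10.7 ± 2.52 against 13 ± 1 at 18 months (SD, n = 3 each; exact permutation p = 0.515). The p was 0.26 at Lmo1, 0.46 at Dcun1d4, 0.54 at Cdh20, 0.85 at Smad5 and 1 at Kremen1, Cpeb4 and Mreg (exact permutation). Over all 17975 genes with another region in their window, 0.117% had more and 1.52% fewer regions in IOP lists at an unadjusted p under 0.05. That balance turned with the number of peaks taken, since 21 of these 295 genes had more regions in IOP lists, against 151 of 233 with each list cut to its 36011 best peaks. With each library cut to its 36011 best peaks the difference at Zbtb7c was 3.17 regions (exact permutation p = 0.005), and without the contralateral list 2 at 3 months it was 2.92 (exact permutation p = 0.04), against 2.17 with all libraries and peaks. The test of a difference in the IOP effect between the ages gave an exact permutation p of at least 0.36 at every member.

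Age and the kind of control gave no call at these genes either. Between the 18mo and 3mo controls the exact permutation p was 0.463 (Hhat) to 1, where 2.49% of all genes had more and 0.145% fewer regions at 18 months (448 of 474 more, against 304 of 442 with an equal number of peaks). Between untreated and contralateral controls it was 0.2 (Cpeb4) to 1, where 1.98% of all genes had more and 2.32% fewer in untreated lists. The latter split was 356 of 773 more in untreated lists, against 556 of 1462 with an equal number of peaks, 56 of 7862 with 50% of a region covered and 656 of 945 without the contralateral list 2 at 3 months. After Benjamini-Hochberg adjustment over all 17975 genes, no gene passed 0.05 in any of the 3 comparisons by this permutation test, against 295, 474 and 773 genes at an unadjusted p under 0.05.

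**Figure D4:**
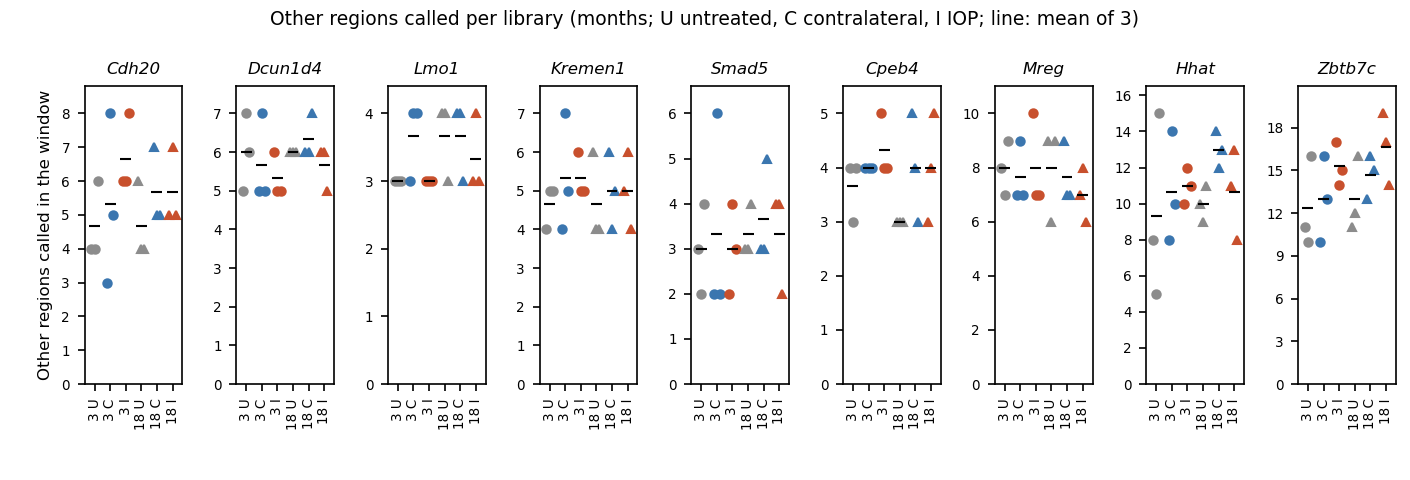
Number of regions other than the gained one with a peak in each gene's window (y axis, from 0, with a scale for each gene) in every library of the 6 groups (circles 3 months, triangles 18 months, black line the mean of 3). IOP and contralateral values of the same age overlap at all 9 genes, and Zbtb7c has its highest counts in IOP lists (14 to 19).

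At the level of single regions, 0 of the 100 others had an unadjusted p under 0.05 for IOP against contralateral lists (0.337% of all regions did) or for age among controls (0.48%), by exact tests over libraries. Few could have done so, since the number of lists with a peak allowed a p under 0.05 at only 6 of the 100 for IOP and 15 for age. None of the 100 was called in 5 IOP and 0 contralateral lists or in 6 and 1, the patterns just outside the rule, which 37 and 20 regions of the whole series had. Regions called in IOP lists and in no other list made up 6 of the 100, against 1.06% of all regions, and 4 of these 6 lay in the Zbtb7c window, which held 23 others. They were weak, with peaks in 2 or 3 IOP lists, and the nearest had its summit 0.625 kb before that of the gained region of Zbtb7c. It ended at base 75916281 and the gained region began at 75916368, so it is hardly separate from the region that the rule chose. The remaining 2 of the 6 were in the windows of Cdh20 (3 lists) and Kremen1 (2 lists). Those called only in contralateral lists numbered 2 (3.54% of all regions) and those only in untreated lists 4 (3.76%). These counts were made after the calls had been seen.

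Untreated and contralateral lists differed at 4 of the 100 regions at an unadjusted p under 0.05, where 1.53% of all regions did and 15 of the 100 could have. The clearest was intronic in Cpeb4, 21.7 kb past the gained region. It had a peak in 6 of 6 contralateral and 6 of 6 IOP lists and in 0 of 6 untreated lists (Fisher's exact test, p = 0.00216, adjusted over all regions 0.0872). Its median percentile was 61.0. At a Hhat and a Zbtb7c region, 25.8 and 94.6 kb from the gained ones, 6 contralateral and 3 IOP lists but 1 untreated list had a peak (Fisher's exact test, p = 0.0152 each). The fourth, 250 kb from the gained region of Zbtb7c, had a peak in 6 untreated lists, 1 contralateral list and no IOP list. None passed the adjustment, and library type differed between these groups in the same way as above.

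The genes that work with the 9 were examined for a similar change. The lists comprised 48 genes of BMP, Wnt and Hedgehog signalling, the CPEB, LIM-only, DCUN1D, type II cadherin and ZBTB7 families and melanosome transport, all matched in the annotation. Their windows held 290 regions, of which 0 had the gained pattern and 0 differed between IOP and contralateral lists at an unadjusted p under 0.05 in either direction. At the level of whole windows, 0 of the 48 genes had more and 0 had fewer regions called after IOP. Over the whole series the shares were 0.0449% of regions with the pattern, 0.337% of regions with a difference, and 0.117% and 1.52% of genes with more and with fewer regions, so counts at or near 0 are also what the background gives and nothing is read from them. The largest lists were BMP signalling, with 62 regions beside 8 genes, and the type II cadherins, with 52 beside 11.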

How the data were processed

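Each library was deposited as a list of ATAC-seq peaks on mm10. Per the methods, the authors called peaks with MACS2 at a q-value of at most 0.05, and per the labels the notes also name STAR 2.7.8a and bedtools 2.29.2. The deposited columns are a score, a fold (ratio of pileup to local background, 1 added to each), −log10 of p and of q, and the summit. Peaks overlapping by at least 1 bp were merged and regions in at least 2 lists kept. A list called a region if any of its peaks lay there, and the best peak gave the values. Promoters reached from 1 kb before to 100 bp after a transcript start. Windows and regions were compared by two-sided exact permutation tests over libraries (400 arrangements within age, 924 for age) or Fisher's exact test, adjusted by Benjamini-Hochberg over all genes or all regions whose counts could reach 0.05. Depth was estimated from list background and shortest peak with a genome of 1.87 Gb. The steps were tested on simulated data. Python 3.11.15, numpy 2.4.6, pandas 2.3.3 and scipy 1.17.1 were used. The genes named were the 9 members and their other regions with an unadjusted p under 0.05. Regions called only in IOP lists, and Lrrc66, were named after their values were seen. Members and gene lists were chosen with earlier results of these data known. A passage on dasatinib and crosslinking is common to all labels, and none assigns a library to a drug. Alternatives were an equal number of peaks, a stricter q, 50% coverage, other flanks, ranking by fold or among the best peaks, a replicate block and leaving out each library.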

Additional observations from a re-analysis of the deposited data

How the results depend on the processing

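The gained pattern was called in 9 member regions under the stricter q, a 50 kb flank and without any 1 library, and in 7 with no flank. With at least 50% of a region covered, 5 regions of the windows had it, 3 of them member regions. Over the whole series the 33 regions became 60 without the 3mo IOP replicate 1 (26 to 60 over all alternatives), so that library limits the count most. At the level of windows, the count of genes with an unadjusted p under 0.05 for IOP, 295, was 148 with no flank and 49 with the replicate block, and lay between 227 (without 3mo contralateral 2) and 825 (without 3mo contralateral 1) when 1 library was left out. For age, 474 genes became 252 with no flank, 728 with a 50 kb flank and 432 to 1159 when 1 library was left out (1159 without 3mo contralateral 2, 1025 without 3mo untreated 6). For the kind of control, 773 became 1462 with an equal number of peaks, 7862 with 50% coverage, 424 with no flank and 778 to 1197 when 1 library was left out (1197 without 3mo contralateral 1, 1192 without 3mo untreated 6). Among the 100 other regions, the 4 that differed between the kinds of control became 2 with an equal number of peaks and 8 with 50% coverage. The 0 that differed after IOP became 2 with 50% coverage and 0 to 2 when 1 library was left out, and a 50 kb flank brought in 2 further regions that differed, both outside the 100. The 1 region whose percentiles separated the ages became 0 when ranked among the best peaks, and 1 to 4 when 1 library was left out (4 without 3mo IOP 3 or 18mo IOP 1). The small IOP difference in other regions changed sign, without a call in either setting, in 11 of 162 alternatives: at Smad5 (-0.333 regions, to 0.667 with 50% coverage and 0.333 with a 50 kb flank or without 3mo contralateral 2; -0.667 to 0.333 without any 1 library), at Lmo1 (-0.5 to 0.167 with an equal number of peaks), at Mreg (-0.167 to 0.0833 to 0.167 without 3mo contralateral 2, 3mo IOP 2 or 3, 18mo contralateral 1 or 18mo IOP 3; -0.667 to 0.167 over all libraries left out) and at Cpeb4 (0.167 to -0.0833 without 18mo contralateral 3 or 18mo IOP 3; up to 0.417 without another). At Zbtb7c 2 alternatives brought it past 0.05. Causes were not tested. The replicate block paired lists of the same number, whose deviations correlated by -0.0631 to 0.105. In the study the contralateral eye of a treated mouse was its control, but no label ties the numbers to animals. A low correlation does not show that the lists are unpaired, so the main tests leave out a pairing that may exist. The replicate block changed no call at the 9 genes. Lists without a peak hold no value, so weak signal below the callers' threshold cannot be seen, and 3 libraries a group allow no p under 0.1 between the ages of treated eyes.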
